A study of Mus musculus with 6 samples.

Results

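A module named for cholesterol synthesis, uptake and SREBP control was followed here through 28 genes, chosen by name from the 54532 gene rows of the deposited count table. None of them encodes a lipoprotein receptor, and genes of lipoprotein uptake come from a separate list, described further below. The 28 genes, all of which had enough reads to be tested, comprise 5 regulators of the pathway, 18 enzymes that build cholesterol from acetyl-CoA units, and 5 genes that move, esterify or release sterols inside the cell. RNA was sequenced from 6 samples of the mouse fibroblast line 3T3, labelled as adipocytes of WT genotype. In 3 samples the cells received DMSO, the solvent, and in the other 3 they received 200 µM baicalin, a flavone glucuronide from Scutellaria roots. The sources used here name neither the subline, nor the way the cells were turned into fat cells, nor the length of treatment. Whether the 3 samples per group were independent cultures is not stated either, so the p-values rest on a spread between samples that may be technical.

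Sterol regulatory element binding proteins (SREBPs) are transcription factors made as membrane proteins of the endoplasmic reticulum. When membrane cholesterol is low, the escort protein Scap carries them to the Golgi apparatus, where proteases free the part that enters the nucleus and switches on the genes of cholesterol synthesis and lipoprotein uptake. When sterols are plentiful, Insig proteins hold Scap and its cargo back. Fat cells store much of their free cholesterol around the lipid droplet and take up most of it from lipoproteins.

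Libraries held between 16730594 and 18326874 counted reads, so that 3 reads correspond to 0.163 to 0.181 CPM (reads relative to the TMM-scaled library size), a limit that covers counting error only. The labelled cell type was only partly borne out by its markers. Of 10 fat cell markers, Lep had 2 reads over all libraries, Slc2a4 at most 3 reads and Cfd at most 6 reads in any library, with Cfd at 0 in every baicalin library, whereas Fabp4 and Lpl were abundant. The summed level of the 10 markers, carried mostly by Lpl and Fabp4, lay between 1804 and 1979 CPM in DMSO and between 802.7 and 817.2 CPM in baicalin. Of the 7 that could be tested, 6 were lower in baicalin (85.7%, against 34.1% of all genes). At least 2-fold lower were 4 of the 7, against 9.71% of all genes. The median log2 fold change of the 7 was -1.56. The lowest, -3.54, was that of a gene with 1 to 42 reads a library. The marker not called, Cebpa, had 15 to 32 reads a library and lay higher in every baicalin library (log2 fold change 0.68, adjusted p = 0.0579). The 7 fibroblast markers summed to 14640 to 15220 CPM in DMSO and 11290 to 11680 CPM in baicalin, a sum carried mostly by Col1a2 and Col1a1. Of these markers 5 were lower, with Acta2 falling most (log2 fold change -2.55), and Thy1 (1.09) and Col3a1 (0.44) were higher. The 4 macrophage markers were low but did not overlap in sum, at 1.79 to 2.36 CPM in DMSO and 2.99 to 4.89 CPM in baicalin. Of these Cd68 was higher (adjusted p = 0.00106), while Adgre1 had 1 read over all libraries. The 3 epithelial markers were at or near 0. The part of these marker changes in the results below was not tested, and in bulk RNA fewer cells of a type and less RNA per cell cannot be told apart.

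Most genes of the module were higher in baicalin, but the regulators moved in opposite directions. By edgeR's quasi-likelihood test (Benjamini-Hochberg adjusted p under 0.05 over all genes, which is what "called" means here), 22 of the 28 genes differed between the groups, or 78.6%, against 67.7% of all 13728 genes tested. Of the 28, 19 were higher (67.9%, against 33.6% of all genes) and 3 were lower (10.7%, against 34.1%). The 3 that fell were Scap, Insig1 and Hmgcs1, and the 6 that were not called were Acat2, Idi1, Fdps, Ebp, Npc1 and Npc2. The median log2 fold change of the 28 was 0.34, while that of all genes was 0.00. Most changes were under 2-fold. Of the 28, 2 were called at least 2-fold higher, Mvd and Fdft1, a share slightly above the 5.24% of all genes. The rise of Fdft1 is uncertain, as described below. None of the 28 was called at least 2-fold lower, against 9.71% of all genes. For 21 of the 28 genes (75%, against 70.2% of all genes) the libraries of one group lay wholly to one side of the other, with baicalin above for 18 (against 35.1%) and below for 3 (also against 35.1%). Under library-size scaling alone the median of all genes moved by -0.13 on the log2 scale, which lowered the share of called genes that were higher from 49.7% to 37.4%. On that scale 15 of the 28 were higher and 4 lower, the fourth being Ebp. Of all 13728 genes, 3472 were called higher and 5811 lower on the same scale. Fold changes below are relative to the TMM scaling.

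**Figure D1:**
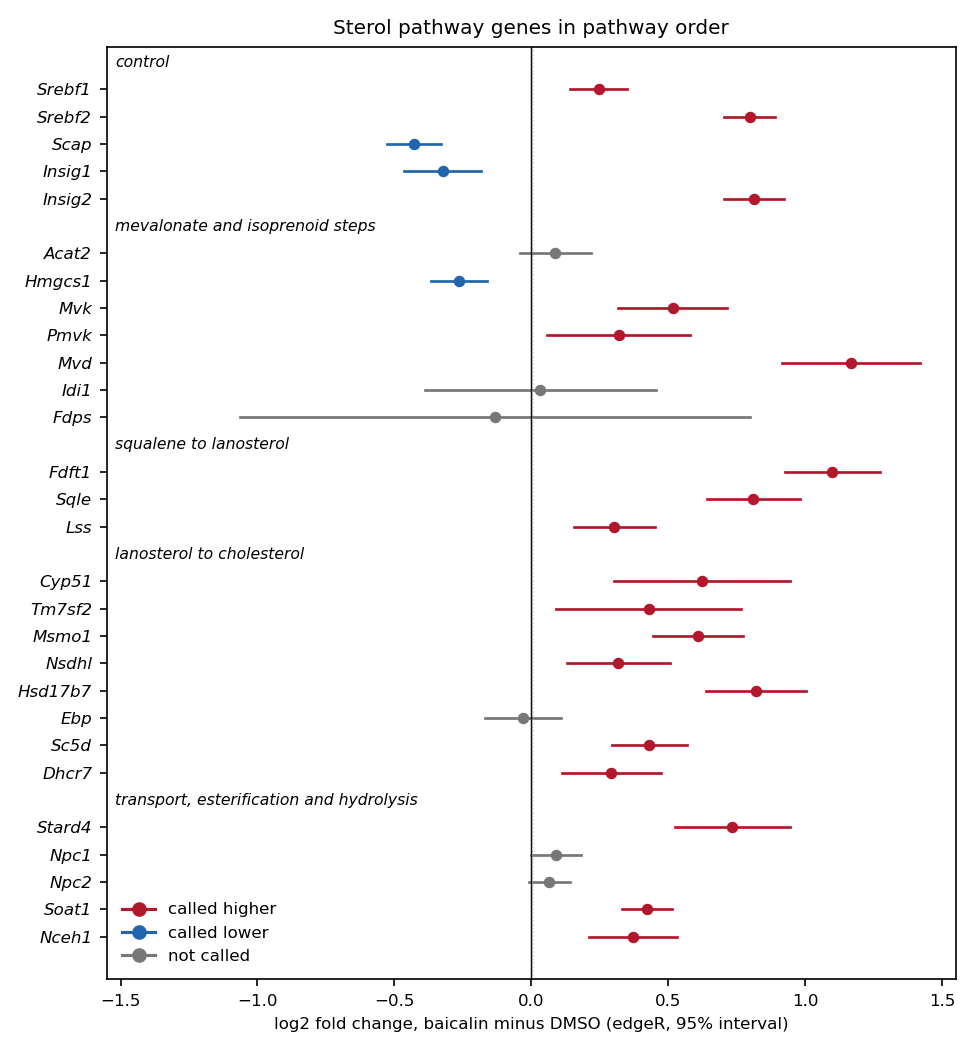
Log2 fold change of each of the 28 genes (x axis, baicalin minus DMSO, edgeR) in pathway order (y axis), with 95% intervals from 3 libraries per group. Red points are called higher, blue points lower and grey points not called. The 11 genes from Fdft1 to Dhcr7 lie to the right of 0 except Ebp, and the 2 widest intervals, of Fdps and Idi1, belong to genes with few reads.

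Among the regulators, the transcript of the cholesterol-directed SREBP rose strongly and that of the lipogenic one slightly. Srebf2 (ENSMUSG00000022463, chromosome 15, 82147181 to 82205379), which encodes the SREBP best known for driving cholesterol synthesis, was at 77.4, 72.5 and 77.0 CPM in the DMSO libraries and at 138, 129 and 127 CPM in the baicalin libraries. Every baicalin library lay well above every DMSO library, and the log2 fold change was 0.80 (SE 0.05, adjusted p = 3.69e-21). Srebf1, whose products mainly drive fatty acid synthesis, stood at 71.5, 66.8 and 63.7 CPM in DMSO and 84.2, 75.5 and 79.9 CPM in baicalin. The groups were close but did not overlap, and the rise was small (log2 fold change 0.25, SE 0.05, adjusted p = 4.33e-05). It was 0.12 on library-size scaling alone and 0.15 after removal of length and GC trends. Exons of Srebf1 overlap those of the opposite-strand gene Rai1 over 109 bp, and Rai1 itself was lower in baicalin (log2 fold change -0.59). Gene-level counts do not separate the transcripts from the alternative first exons of Srebf1.

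The genes that escort and retain SREBPs did not follow one direction. Scap (chromosome 9, 110333288 to 110384950), the escort, fell from 100.3, 99.0 and 102 CPM in DMSO to 79.5, 70.5 and 74.0 CPM in baicalin. All 3 baicalin libraries were below all 3 DMSO libraries, with a log2 fold change of -0.43 (SE 0.05, adjusted p = 4.94e-11). Insig1 (ENSMUSG00000045294, chromosome 5, 28071363 to 28078662), the retention factor that is itself a target of SREBPs, was at 43.4, 38.7 and 38.6 CPM in DMSO and 29.5, 34.5 and 32.4 CPM in baicalin. Its highest baicalin library remained under its lowest DMSO library, and the log2 fold change was -0.32 (SE 0.07, adjusted p = 5.86e-05). Insig2 (ENSMUSG00000003721, chromosome 1, 121304353 to 121332589), its paralog, which is not known for the same dependence on SREBPs, rose from 44.9, 40.9 and 47.5 CPM to 76.3, 76.7 and 81.2 CPM. The separation of the groups was wide, with a log2 fold change of 0.81 (SE 0.05, adjusted p = 6.79e-19).

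**Figure D2:**
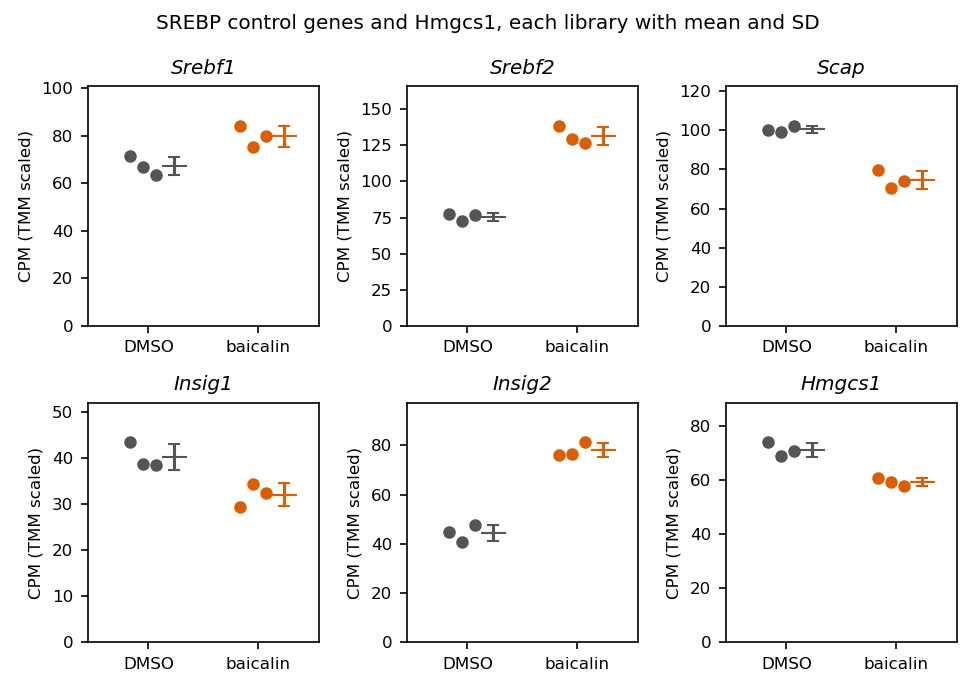
TMM-scaled CPM (y axis, from 0) of 5 regulators and of Hmgcs1 in each of the 3 DMSO and 3 baicalin libraries, with the group mean and SD beside the points. In each of the 6 panels the points of the groups are separate, with Srebf1, Srebf2 and Insig2 higher in baicalin and Scap, Insig1 and Hmgcs1 lower.

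Within each library the balance of the paralogs could be read without any scaling between libraries, as a ratio of FPKM values (read counts corrected for gene length and library size). The ratio of Insig1 to Insig2 was 1.09, 1.06 and 0.91 in DMSO and 0.43, 0.50 and 0.45 in baicalin. The paralogs were thus at similar per-length levels in DMSO, while in every baicalin library Insig2 was the more abundant. The ratio of Srebf1 to Srebf2 was 1.18, 1.17 and 1.06 in DMSO and 0.78, 0.75 and 0.80 in baicalin, so that the order of the paralogs differed between the groups in all 6 libraries. For both ratios the exact permutation test gave p = 0.1 (two-sided, adjusted p = 0.15 over 3 ratios), which is the smallest p that 3 against 3 libraries allow. The ratio of Nceh1, which encodes a hydrolase of cholesterol esters, to Soat1, which encodes the enzyme that makes them, was 0.455, 0.455 and 0.494 in DMSO and 0.413, 0.513 and 0.430 in baicalin. Those groups overlapped (exact permutation p = 0.6), and the log2 difference of -0.06 was 0.0056 without baicalin replicate 1.

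**Figure D3:**
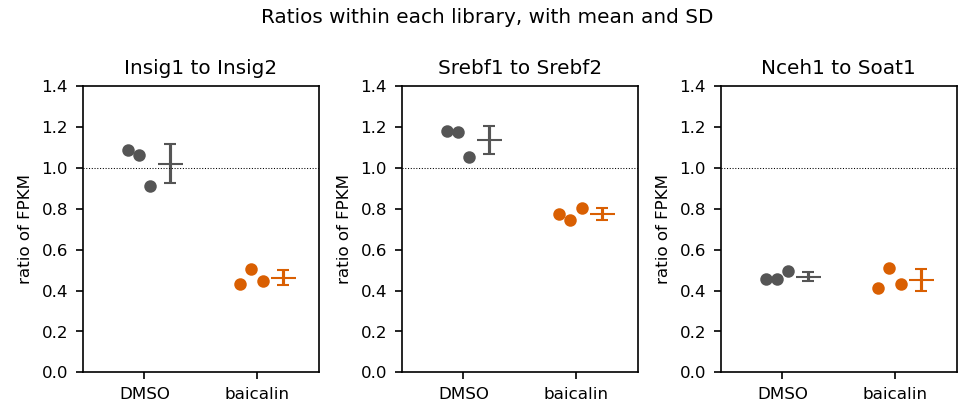
Ratio of FPKM values within each library (y axis, from 0; dotted line at 1) for Insig1 to Insig2, Srebf1 to Srebf2 and Nceh1 to Soat1, with group mean and SD of 3 libraries. For Insig1 to Insig2 and for Srebf1 to Srebf2 all baicalin points lie below all DMSO points, and for Nceh1 to Soat1 the groups overlap.

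The promoters of these genes were read for the letters that SREBPs and their partner factors are known to bind, from RefSeq windows on build GRCm38.p6 that run from 250 bases before to 50 bases after a transcription start. Of the 28 genes, 23 matched a window by symbol, with 31 windows in all. Fdps, Fdft1, Sqle, Stard4 and Npc1 matched none and were not searched. The CCAAT box (letters CCAAT, searched on both strands), the motif of NF-Y, a known partner of SREBPs, was in windows of 21 of the 23 genes (91.3%), against 41.1% of all 27025 genes with a window and 43.6% of the 9781 tested genes with one. All 16 matched genes that were higher in baicalin held it, as did 2 of the 3 that were lower and 3 of the 4 that were not called. The GC box (GGGCGG, both strands), bound by Sp1 factors, was in 21 of 23 as well, against 68.5% of the tested genes. A strict form of the sterol response element (TCACNCCAC, both strands) was found in 1 of the 23, Hmgcs1. Its share was 1.44% of all genes with a window and 1.35% of the tested genes. The E-box TCACGTGA was found in none, against 1.125% of all genes with a window and 2.25% of the tested genes. Only the presence of a motif was counted, and matches of different motifs were counted separately where their letters overlap. These are matches of letters in a short window, and functional elements that differ from these letters or lie outside the window are not counted.

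The stretches below show CCAAT boxes (capitals, ATTGG where the box is on the other strand) that lie before both the RefSeq and the GENCODE start. Among genes with a window, they cover the 4 rising genes with the largest change that hold such a box. They also cover the 2 falling genes that do. Fdft1 and Sqle, which rose more than some of these, had no window. The windows of Hsd17b7 and Hmgcs1 each hold 1 more box, nearer to or past the start, which is not shown. The stretches place genes that moved in opposite directions side by side. In Hmgcs1 the capitals TCACCCCAC mark the sterol response element.
Mvd, chr8:122443425-122443502, minus strand: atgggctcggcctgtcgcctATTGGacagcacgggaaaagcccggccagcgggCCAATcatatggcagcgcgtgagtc
Hsd17b7, chr1:169969254-169969390, minus strand: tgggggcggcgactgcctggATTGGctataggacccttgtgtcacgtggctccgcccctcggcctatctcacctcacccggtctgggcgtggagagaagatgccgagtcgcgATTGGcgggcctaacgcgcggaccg
Insig2, chr1:121332594-121332745, minus strand: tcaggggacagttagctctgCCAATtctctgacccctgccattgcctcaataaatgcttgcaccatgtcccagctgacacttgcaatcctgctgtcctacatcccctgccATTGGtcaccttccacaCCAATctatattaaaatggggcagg
Srebf2, chr15:82147114-82147158, plus strand: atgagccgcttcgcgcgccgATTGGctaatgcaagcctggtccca
Insig1, chr5:28071176-28071220, plus strand: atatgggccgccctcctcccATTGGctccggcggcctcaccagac
Hmgcs1, chr13:119690101-119690330, plus strand: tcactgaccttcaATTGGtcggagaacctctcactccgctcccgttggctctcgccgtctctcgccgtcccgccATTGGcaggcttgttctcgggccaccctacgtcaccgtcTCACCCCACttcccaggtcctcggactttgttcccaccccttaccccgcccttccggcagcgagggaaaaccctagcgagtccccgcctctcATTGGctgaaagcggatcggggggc

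The stretch of Hmgcs1, which fell, held 3 CCAAT boxes beside its sterol response element, and those of Insig2 and Mvd, which rose, held 3 and 2. The windows of Scap, the third gene that fell, held no CCAAT box.

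The enzymes of the early, mevalonate part of the pathway were divided: 3 of 7 rose (42.9%, against 33.6% of all genes), 1 fell (14.3%, against 34.1%) and 3 were not called, with a median log2 fold change of 0.09. The share called, 57.1%, was below the 67.7% of all genes. Hmgcs1 (ENSMUSG00000093930, chromosome 13, 119690379 to 119708260), the cytosolic HMG-CoA synthase that commits carbon to the pathway, was at 73.8, 68.9 and 70.7 CPM in DMSO and 60.8, 59.3 and 57.7 CPM in baicalin. The groups did not overlap (log2 fold change -0.26, SE 0.05, adjusted p = 9.95e-06), and after removal of length and GC trends the fall was smaller, at -0.13 (adjusted p = 0.023). Acat2, the cytosolic thiolase of the step before it, was at 37.8, 41.9 and 38.3 CPM in DMSO and 44.4, 40.6 and 40.3 CPM in baicalin. Its groups overlapped, and the 95% interval of its log2 fold change ran from -0.04 to 0.22. Of its 50-base stretches 45.9% also occur in other genes, chiefly the neighbouring copy Acat3, so its level is uncertain.

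The kinases and the decarboxylase that turn mevalonate into isoprene units were higher. Mvd (ENSMUSG00000006517, chromosome 8, 122433601 to 122443422), the decarboxylase, was at 5.69, 6.46 and 5.10 CPM in DMSO and 13.2, 12.3 and 13.2 CPM in baicalin. Every baicalin library was far above every DMSO library, and the log2 fold change of 1.17 (SE 0.13, adjusted p = 9.69e-12) was the largest of the 28 genes. Mvk, mevalonate kinase, rose from 11.8, 11.5 and 12.5 CPM to 17.1, 17.2 and 16.8 CPM, with tight and separate groups (log2 fold change 0.52, SE 0.10, adjusted p = 8.99e-06). With length and GC trends removed its change was 0.25 (adjusted p = 0.0217). Pmvk, phosphomevalonate kinase, was at 7.69, 6.692 and 8.0 CPM in DMSO and 10.5, 8.87 and 8.56 CPM in baicalin, and its gap between the groups was narrow (log2 fold change 0.32, SE 0.13, adjusted p = 0.0276). That call was lost with DESeq2 (adjusted p = 0.0768), on library-size scaling alone (0.194), on log2(FPKM + 1) without a filter (0.0716), after removal of length and GC trends (log2 fold change 0.02, adjusted p = 0.894), without DMSO replicate 2 (0.122) and without baicalin replicate 1 (0.146).

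The last enzymes of this stretch of the pathway had few reads. Idi1, the isomerase of the isoprene units, was covered by 57, 46 and 71 reads in the DMSO libraries and by 51, 59 and 59 in the baicalin libraries. The groups overlapped, with a log2 fold change of 0.03 and a 95% interval from -0.39 to 0.46, and 30.5% of its 50-base stretches occur in other genes. Fdps, farnesyl diphosphate synthase, was covered by only 6, 12 and 12 reads in the DMSO libraries and by 10, 8 and 8 in the baicalin libraries. Its interval ran from -1.06 to 0.80, and its exons overlap the same-strand gene Gm43738 over 1124 bp, and how reads shared by overlapping genes were treated is not known, so its level is uncertain.

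All 3 enzymes from farnesyl diphosphate to lanosterol were higher in baicalin (against 33.6% of all genes), with a median log2 fold change of 0.81. Sqle (ENSMUSG00000022351, chromosome 15, 59315077 to 59331192), squalene epoxidase, a rate-limiting step of the later pathway, was at 15.0, 15.6 and 16.66 CPM in DMSO and 27.0, 26.0 and 29.8 CPM in baicalin. The groups were far apart (log2 fold change 0.81, SE 0.08, adjusted p = 3.72e-12). Fdft1 (ENSMUSG00000021273, chromosome 14, 63145150 to 63179578), squalene synthase, was at 13.7, 13.0 and 12.7 CPM in DMSO and 29.5, 26.2 and 28.7 CPM in baicalin. That rise of 1.10 (SE 0.09, adjusted p = 2.51e-16) is uncertain, because 774 bp of its exons overlap those of Ctsb, a cathepsin gene on the opposite strand. Ctsb had 158436 reads in all libraries together against 2157 for Fdft1, and was itself higher in baicalin (log2 fold change 0.77). Lss, which closes the sterol rings to form lanosterol, rose from 28.3, 24.9 and 26.0 CPM to 31.3, 32.1 and 34.4 CPM. The step was small but the groups were separate (log2 fold change 0.30, SE 0.07, adjusted p = 0.000305), and its value was 0.18 on library-size scaling alone and 0.52 with length and GC trends removed.

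Of the 8 enzymes that turn lanosterol into cholesterol, 7 were higher in baicalin (87.5%, against 33.6% of all genes) and Ebp was not called. The median log2 fold change of the 8 was 0.43. Hsd17b7 (chromosome 1, 169949535 to 169969241), the sterol ketone reductase of the demethylation complex, was at 13.2, 16.8 and 14.3 CPM in DMSO and 23.6, 27.3 and 27.1 CPM in baicalin. It showed the largest change of this group (log2 fold change 0.82, SE 0.09, adjusted p = 2.4e-11), with the lowest baicalin library above the highest DMSO library. Its partners in the same complex also rose. Msmo1, the methyl oxidase, went from 17.2, 18.9 and 16.6 CPM to 26.7, 26.6 and 27.3 CPM (log2 fold change 0.61, adjusted p = 4.93e-09), and the baicalin libraries were nearly equal. Nsdhl, the sterol dehydrogenase, went from 14.79, 13.96 and 14.47 CPM to 17.15, 18.42 and 18.29 CPM (log2 fold change 0.32, adjusted p = 0.00251), a smaller step whose call was lost on library-size scaling alone (0.19, adjusted p = 0.0703).

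Cyp51, the lanosterol demethylase that opens this part of the pathway, stood at 4.496, 4.29 and 4.329 CPM in DMSO and 7.88, 5.76 and 6.58 CPM in baicalin. Its baicalin libraries varied more than its DMSO libraries but stayed above them (log2 fold change 0.62, SE 0.16, adjusted p = 0.000611). On log2(FPKM + 1), a scale that understates changes of low genes, its value was 0.35. Exons of Cyp51 overlap those of the opposite-strand gene Akap9 over 166 bp, and Akap9 had 3573 reads against 583 for Cyp51, with no called change of its own (log2 fold change -0.06, adjusted p = 0.456). Tm7sf2, a sterol reductase of the step after Cyp51, was at 3.90, 3.72 and 4.66 CPM in DMSO and 5.18, 5.54 and 5.83 CPM in baicalin, from 65 to 100 reads per library. The groups were separate by a narrow gap. Its call (log2 fold change 0.43, SE 0.17, adjusted p = 0.022) was lost with DESeq2 (adjusted p = 0.0604), on library-size scaling alone (0.11), on log2(FPKM + 1) without a filter (0.21, adjusted p = 0.113), with length and GC trends removed (0.0825), and without DMSO replicate 1 (0.0675), DMSO replicate 2 (0.0799) or baicalin replicate 3 (0.065). Exons of the same-strand gene Vps51 overlap those of Tm7sf2 over 532 bp. Vps51 had 134 reads against 506 for Tm7sf2, and was itself lower in baicalin (log2 fold change -0.95, adjusted p = 0.0115).

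The closing steps were mixed in size. Sc5d, the desaturase that places the double bond of the B ring, rose from 27.6, 32.0 and 32.1 CPM to 40.4, 41.6 and 41.4 CPM, with clearly separate groups (log2 fold change 0.43, SE 0.07, adjusted p = 2.59e-07). Dhcr7, the final reductase of one branch, was at 19.55, 18.93 and 19.95 CPM in DMSO and 25.22, 19.94 and 26.5 CPM in baicalin. Its second baicalin library fell within the DMSO range, so the groups overlapped although the gene was called (log2 fold change 0.29, SE 0.09, adjusted p = 0.0036). The call was lost on library-size scaling alone (0.16, adjusted p = 0.102) and on log2(FPKM + 1) without a filter (adjusted p = 0.127). Ebp, the sterol isomerase, was at 47.0, 45.1 and 42.9 CPM in DMSO and 49.5, 44.0 and 38.8 CPM in baicalin. The baicalin libraries spread around the DMSO range, and the 95% interval of the log2 fold change ran from -0.17 to 0.11. Ebp was called lower on library-size scaling alone (-0.16, adjusted p = 0.0391) and with length and GC trends removed (-0.25, adjusted p = 0.000756).

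Added up over the 18 enzymes of synthesis, the level was 343.7 to 345.9 CPM in the DMSO libraries and 415.5 to 433.1 CPM in the baicalin libraries. The DMSO sums were nearly identical and the baicalin sums were all higher. Of these 18 genes, 13 were called higher (72.2%, against 33.6% of all genes) and 1 lower (5.56%, against 34.1%).

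Genes that handle cholesterol after its synthesis or uptake were higher or not called. Stard4, a soluble carrier of cholesterol between membranes and a known target of SREBPs, was at 9.967, 11.95 and 9.809 CPM in DMSO and 17.8, 16.2 and 18.8 CPM in baicalin. The groups were separate, with a log2 fold change of 0.73 (SE 0.10, adjusted p = 2.25e-08). Soat1 (chromosome 1, 156424525 to 156474331), which esterifies cholesterol for storage, rose from 87.4, 87.2 and 86.7 CPM to 118, 113 and 120.0 CPM. The DMSO libraries agreed closely and all baicalin libraries were higher (log2 fold change 0.42, SE 0.05, adjusted p = 9.41e-12). With length and GC trends removed its change was 0.75. Nceh1, whose product releases cholesterol from those esters, rose as well, from 21.3, 21.3 and 23.0 CPM to 26.1, 31.0 and 27.7 CPM (log2 fold change 0.37, SE 0.08, adjusted p = 5.57e-05), with separate groups and a value of 0.24 on library-size scaling alone.

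Npc1 and Npc2, which hand cholesterol out of lysosomes, were abundant and not called. Npc2, the soluble lysosomal carrier, was at 1131, 1074 and 1130 CPM in DMSO and 1207, 1130 and 1154 CPM in baicalin. Its groups overlapped, with a log2 fold change of 0.07 and a 95% interval from -0.01 to 0.14. Npc1, the membrane partner that takes over the cholesterol, was at 111.9, 116 and 112 CPM in DMSO and 126, 114 and 121 CPM in baicalin. Baicalin replicate 2 lay within the DMSO range, and the interval ran from -0.00 to 0.18 (adjusted p = 0.0761). Without that library both genes were called higher, Npc1 at 0.14 (adjusted p = 0.0112) and Npc2 at 0.10 (adjusted p = 0.0315), as they were without the low-count filter. With length and GC trends removed Npc1 was called at 0.41 (adjusted p = 2.09e-12). Exons of Npc1 overlap those of the opposite-strand gene Rmc1 over 511 bp, and Rmc1 itself was higher in baicalin (log2 fold change 0.20, adjusted p = 0.0207).

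Per gene length, the order of the levels was led in both groups by Npc2, at 206 ± 6.10 FPKM with DMSO and 218 ± 8.64 FPKM with baicalin (mean ± SD, n = 3), far above any other gene of the set. In DMSO it was followed by Ebp (19.6 ± 0.94 FPKM), Hmgcs1 (15.6 ± 0.58), Acat2 (15.6 ± 0.87), Scap (13.6 ± 0.21) and Insig1 (13.1 ± 0.94), of which Hmgcs1 and Acat2, and likewise Scap and Insig1, did not differ beyond their spread. In baicalin the place after Npc2 was taken by Insig2 (22.9 ± 0.77 FPKM), followed by Ebp (19.4 ± 2.45) and Srebf2 (18.6 ± 0.97), the last of which lay within the spread of Ebp. Apart from Ebp, the enzymes after farnesyl diphosphate had DMSO levels between 0.74 ± 0.09 FPKM (Tm7sf2) and 6.33 ± 0.52 FPKM (Sc5d).

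**Figure D4:**
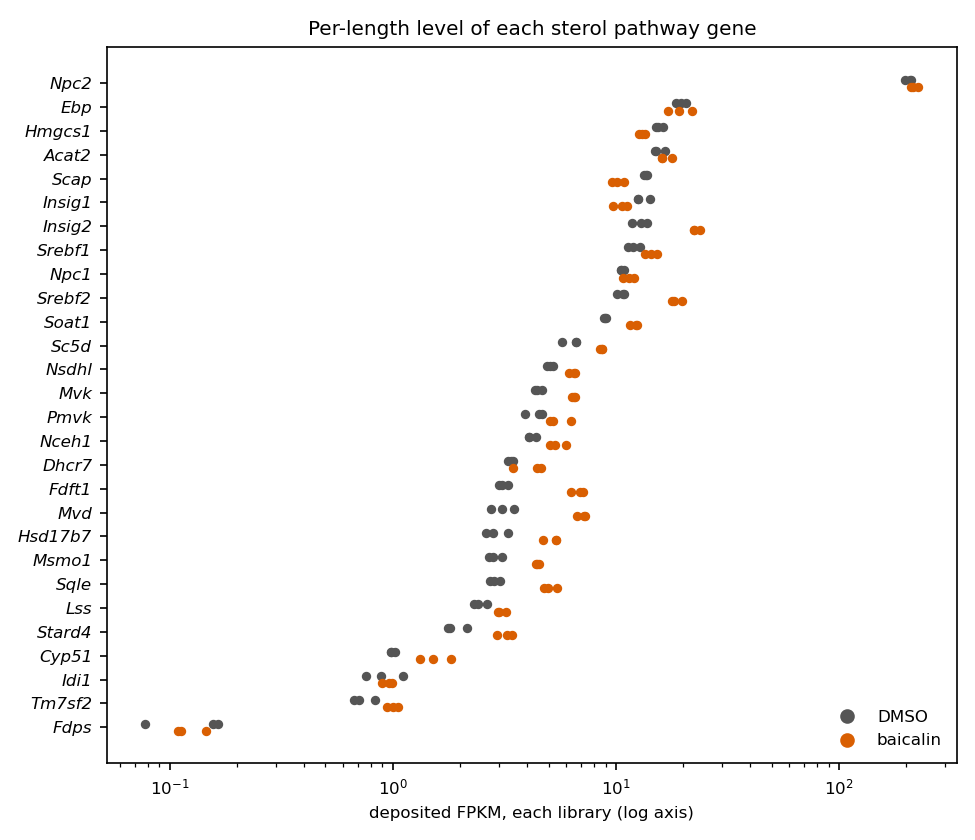
Deposited FPKM (x axis, log scale) of each of the 28 genes in each library, ordered by the DMSO mean (y axis). Grey points are the 3 DMSO libraries and orange points the 3 baicalin libraries. Npc2 stands apart at about 200 FPKM, and Insig2 and Srebf2 move to the right of genes that were above them in DMSO.

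Beyond the 28 genes, a list of 80 other genes of sterol metabolism was examined, of which 73 could be tested. Of these, 44 were higher (60.3%, against 33.6% of all genes) and 17 lower (23.3%, against 34.1%), with a median log2 fold change of 0.26. In the rest of the synthesis pathway and its electron donors 8 of 9 were higher, and the 1 that was lower was Acat1, the mitochondrial thiolase (-0.30), named after its value was seen. Of genes for lipoprotein uptake and lysosomal release 10 of 11 were higher (90.9%, median 0.55). The largest rise there was that of Olr1, a scavenger receptor for oxidised lipoprotein, from 6.18, 7.84 and 6.30 CPM to 44.0, 49.3 and 44.9 CPM, with a wide gap between the groups (log2 fold change 2.77, SE 0.09, adjusted p = 2.82e-32). Scarb1, the receptor for high-density lipoprotein, rose from 26.4, 28.8 and 26.8 CPM to 72.6, 72.6 and 74.7 CPM (log2 fold change 1.42, adjusted p = 7.74e-28). The 1 gene of this subgroup that was lower was Mylip, a ubiquitin ligase that targets lipoprotein receptors for degradation (-0.32, adjusted p = 3.53e-08), named after its value was seen.

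The remaining subgroups held genes of both directions. For SREBP maturation and sterol-regulated protein turnover 12 of 19 were higher (63.2%, against 33.6% of all genes) and 5 lower (26.3%, against 34.1%), with a median of 0.20. The largest fall was that of Rnf139, a ubiquitin ligase of the endoplasmic reticulum, from 39.6, 37.3 and 38.3 CPM to 23.0, 26.6 and 24.1 CPM (log2 fold change -0.64, adjusted p = 3.39e-11, and -0.40 with length and GC trends removed). Another subgroup covered branches from isoprene units to products other than sterols, with genes that modify those products further. There 9 of 16 were higher (56.2%) and 3 lower (18.8%), against the same shares, with a median of 0.29. The falls there included Trit1, which adds an isoprene unit to transfer RNA, at -0.41, and Pggt1b, a subunit of a protein prenyltransferase, at -0.54, a value that was -0.03 and not called with length and GC trends removed (adjusted p = 0.804). Of genes listed under sterol transfer between membranes 4 of 15 were higher (26.7%, against 33.6% of all genes) and 6 lower (40%, against 34.1%), with a median of -0.03. The list also holds genes of sterol-sensing nuclear receptors, which are not transfer proteins and were called higher. In that subgroup Osbpl5, an oxysterol-binding protein relative, fell from 99.0, 97.6 and 93.4 CPM to 50.3, 44.6 and 43.8 CPM, with every baicalin library far below every DMSO library (log2 fold change -1.06, SE 0.05, adjusted p = 2.6e-24). Only 3 of the 7 genes listed under sterol oxidation and sulfation had enough reads. Of these Soat2 was higher (log2 fold change 1.53, SE 0.38) and Cyp7b1, an oxysterol hydroxylase, lower (-0.79, SE 0.28). Few reads carry either change, from 8 to 31 a library for Soat2 and from 19 to 52 for Cyp7b1. Each gene averaged under 5 CPM, and both were named after their values were seen. Soat2 is listed there although it is a relative of Soat1, which esterifies cholesterol, rather than a gene of oxidation or sulfation.

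**Figure D5:**
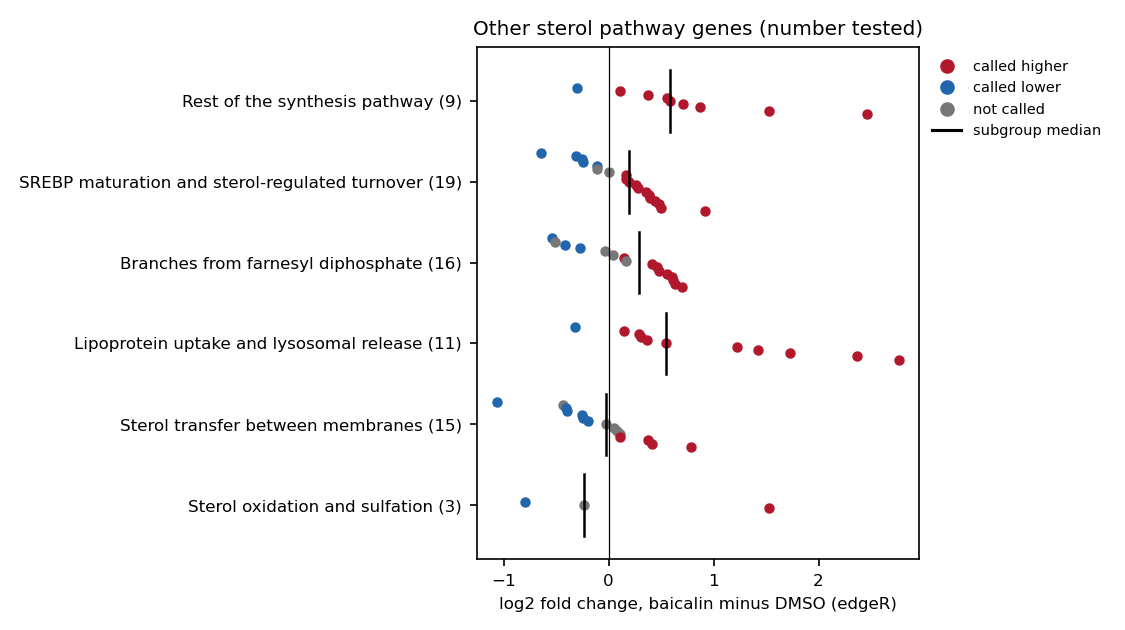
Log2 fold change (x axis, baicalin minus DMSO, edgeR) of the 73 tested genes of 6 other subgroups of sterol metabolism (y axis, number tested in brackets). Each point is a gene, coloured by its call, and the black bar is the median of its subgroup. Lipoprotein uptake genes reach furthest to the right, at 2.77, and the subgroup labelled sterol transfer centres near 0.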

How the data were processed

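Reads per gene were counted by the authors with featureCounts 1.5.0-p3, per the series design text, on build mm10, per the submitters' processing notes. The authors derived the deposited FPKM from those counts and gene lengths, per the same text. The sources used here name no aligner, annotation or strand setting. The 28 genes and the lists were chosen with earlier results of these data known. Counts of the 3 DMSO and 3 baicalin libraries were tested in edgeR 4.0.16 (R 4.3.3, limma 3.58.1) with filterByExpr, TMM factors and robust quasi-likelihood fits, treatment being the only term. Adjusted p-values of genes are from this edgeR test except where another is stated. SE is the log2 fold change divided by the root of its F statistic, and intervals cover 95%. The biological coefficient of variation was 4.61%.

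All 28 genes are named, and per-library values beyond those of the regulators, the 5 largest rises and falls and the genes not called were added for the role groups. Of the 80 other genes, the rule names the called genes averaging 5 CPM or more with the 4 largest rises and the 4 largest falls, and 2 of those 8 are not reported here. Coordinates and exon overlaps come from GENCODE M21, on the assembly of mm10, and shared 50-base stretches from its transcripts. That annotation holds 54495 of the 54532 gene rows. Promoter windows are from RefSeq (GRCm38.p6).

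Up to 17 alternatives were run. The FPKM filter left out Fdps, Idi1 and Tm7sf2, and the stricter CPM filter left out Fdps. The ratios within a library were repeated only on leaving out each library and on CPM. For the test these were DESeq2 1.42.0 and limma-voom, and for scaling RLE factors or the library size alone. The low-count filter was dropped, or replaced by 1 CPM or more in every library of either group (3 libraries). The replicate number entered as a blocking term. The deposited FPKM were tested by limma-trend with a pseudocount of 1 or 0.1 where 3 libraries reached 1 FPKM, and with a pseudocount of 1 on every gene above 0. Trends of log counts with exon length and GC content were taken out per library by lowess (span 0.3). Finally each of the 6 libraries was left out. Within-group pairs of libraries differed by more than sampling noise (chi-square per degree of freedom from 2.83 to 4.35), so none was counted as a duplicate. On counts simulated for the DMSO and baicalin libraries (13505 genes), the test called 42.9% of genes changed 1.2-fold, 85.4% at 1.5-fold and 92% at 2-fold, and falsely called 8 of the 13309 genes left unchanged. The simulation changed far fewer genes than were called in these data and gave every gene the same variation. Its rates therefore need not hold for these data. Figures were drawn with matplotlib 3.10.9.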

Additional observations from a re-analysis of the deposited data

How the results depend on the processing

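Under the 17 alternatives the number of the 28 genes called higher ranged from 15 to 21 and the number called lower from 3 to 4, and all stayed within 1.5 times the reported counts of 19 and 3. For the 80 other sterol genes 37 to 44 were called higher and 12 to 22 lower. Among all genes, 3472 to 4911 were called higher and 3545 to 5811 lower, out of 11609 to 27246 tested. No called gene of the 28 changed direction. The calls lost under an alternative were those of Pmvk (6 alternatives), Tm7sf2 (7 of the 15 that could test it), Dhcr7 (2) and Nsdhl (1), and calls were gained for Ebp (2), Npc1 (3) and Npc2 (2). The cause was not tested. The Insig1 to Insig2 log2 difference ranged from -1.22 to -1.09 on leaving out a library and that of Srebf1 to Srebf2 from -0.60 to -0.52, whereas that of Nceh1 to Soat1 ranged from -0.15 to 0.0056, the latter without baicalin replicate 1 (the cause was not tested). Same-numbered DMSO and baicalin libraries deviated together at most weakly, with correlations of 0.035, 0.037 and -0.002. Those of different numbers ran from -0.058 to 0.026. The numbers were not taken to pair the samples. Replicates 1 and 2 of both groups correlated best with their own number, and replicate 3 of neither group did. With the replicate number as a block 19 of the 28 genes were called higher and 3 lower, and 9391 of all genes were called instead of 9294. Few reads limit what can be said of Fdps, with 6 to 12 reads a library, and of Idi1, and the reason for these low counts was not tested.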
